A study of Homo sapiens with 12 samples.

Results

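The genes described here make cholesterol and fatty acids, or control that synthesis. They were chosen by name, with earlier results of these data known. The list covers mevalonate and sterol enzymes, regulators of the sterol regulatory element binding proteins (SREBPs), sterol transport genes and fatty acid enzymes. The list holds 46 symbols for 44 distinct genes, since 2 pairs are an older and a newer symbol of 1 gene. SC5D is listed in the tables under its older symbol SC5DL. Of these, 42 were found among the 12756 genes of the study, and NPC1L1 and THRSP were not analysed here. By role, they comprise 8 genes of the mevalonate segment, 11 of the squalene and sterol segment, 7 SREBP regulators, 5 of sterol transport and 11 of the fatty acid segment.

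SREBPs are transcription factors made as membrane proteins of the endoplasmic reticulum. When sterols are scarce, the escort protein SCAP carries them to the Golgi, where the proteases encoded by MBTPS1 and MBTPS2 release the active part, which switches on genes of cholesterol uptake, cholesterol synthesis and fatty acid synthesis. When sterols are plentiful, INSIG proteins hold SCAP back. INSIG1 and SREBF2 are themselves SREBP targets, so their RNA is part of the loop.

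HCT116 is an established line of human colorectal carcinoma cells, and its polyadenylated RNA was sequenced 48 hours after seeding. The 12 libraries form 4 groups of 3 labelled replicates: parental cells, AGO2_KO cells, ANKRD52_KO cells, and ANKRD52;CSNK1A1_KO cells, labelled as knockouts of both genes and called the double knockout here. AGO2 is an Argonaute, the protein that binds microRNAs and guides them to messages. CSNK1A1 encodes the kinase casein kinase 1 alpha, and ANKRD52 encodes a regulatory part of the phosphatase PP6. The study's title concerns an Argonaute phosphorylation cycle in microRNA silencing, and each knockout was compared with the same parental libraries. The labels do not say how the knockouts were made, whether a knockout line is 1 clone, or whether replicates were separate cultures. The p-values thus rest on the spread among the libraries alone, which may be technical. Differences between a knockout and parental cells, or between knockouts, cannot be told apart from differences between clones.

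The authors deposited a log2 fold change, a likelihood ratio and an adjusted p per gene for each knockout against parental, and values per library were not analysed here. The depth of each library is thus unknown and no spread between replicates can be printed. A gene is said to have fallen or risen where the authors' edgeR adjusted p was under 0.05. A log2 fold change below 0 means a lower level in the knockout, and each standard error (SE) is approximate, rebuilt from the likelihood ratio. Group levels in CPM (reads of a gene scaled to a common library total) are implied from the mean level and the 3 fold changes and carry no error, and they are not compared between genes because they are not per length. In bulk RNA, fewer cells of a type and less RNA per cell cannot be told apart.

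Promoters of 7 members that the results below turn on are shown first, as RefSeq gives them on GRCh38.p14, from 250 bases before the gene start to 50 after it. The set pairs genes that fell by more than 1 in log2 terms in the double knockout (INSIG1, SREBF2, DHCR7, MVD) with close relatives that parted from each other (INSIG1 and INSIG2, FADS1 and FADS2). Capitals mark matches on either strand to TCACNCCAC or its looser form TCANNCCAC (core of the sterol response element bound by SREBPs), CACGTG (E-box) and CCAAT (NF-Y box).
SREBF2: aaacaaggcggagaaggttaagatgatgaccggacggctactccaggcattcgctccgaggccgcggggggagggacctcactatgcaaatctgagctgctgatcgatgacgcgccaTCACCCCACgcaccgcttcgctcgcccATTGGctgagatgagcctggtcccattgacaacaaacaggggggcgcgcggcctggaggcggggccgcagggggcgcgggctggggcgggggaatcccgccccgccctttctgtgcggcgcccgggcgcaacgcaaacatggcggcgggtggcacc
INSIG1: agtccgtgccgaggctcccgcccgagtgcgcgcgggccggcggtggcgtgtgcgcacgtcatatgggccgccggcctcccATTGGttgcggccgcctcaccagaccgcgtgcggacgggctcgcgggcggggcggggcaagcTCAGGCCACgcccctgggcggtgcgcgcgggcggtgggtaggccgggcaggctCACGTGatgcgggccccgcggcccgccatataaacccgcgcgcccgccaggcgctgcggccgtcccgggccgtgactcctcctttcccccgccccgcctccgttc
INSIG2: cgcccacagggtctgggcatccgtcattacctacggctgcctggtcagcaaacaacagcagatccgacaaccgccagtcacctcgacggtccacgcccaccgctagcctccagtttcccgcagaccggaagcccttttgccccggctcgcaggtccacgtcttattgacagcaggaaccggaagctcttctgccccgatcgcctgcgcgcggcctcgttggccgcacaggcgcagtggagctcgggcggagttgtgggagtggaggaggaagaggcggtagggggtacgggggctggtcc
DHCR7: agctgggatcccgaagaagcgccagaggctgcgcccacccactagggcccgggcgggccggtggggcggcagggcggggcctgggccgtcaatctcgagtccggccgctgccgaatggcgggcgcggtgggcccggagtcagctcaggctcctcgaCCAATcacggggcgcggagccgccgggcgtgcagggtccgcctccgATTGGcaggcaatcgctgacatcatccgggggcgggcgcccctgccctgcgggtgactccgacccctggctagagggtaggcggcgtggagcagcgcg
MVD: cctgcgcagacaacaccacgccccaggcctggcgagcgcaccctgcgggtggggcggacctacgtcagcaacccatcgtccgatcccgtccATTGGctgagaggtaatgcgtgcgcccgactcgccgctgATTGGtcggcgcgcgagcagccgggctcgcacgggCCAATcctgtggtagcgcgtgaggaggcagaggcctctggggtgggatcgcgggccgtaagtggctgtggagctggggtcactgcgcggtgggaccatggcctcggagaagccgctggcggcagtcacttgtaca
FADS1: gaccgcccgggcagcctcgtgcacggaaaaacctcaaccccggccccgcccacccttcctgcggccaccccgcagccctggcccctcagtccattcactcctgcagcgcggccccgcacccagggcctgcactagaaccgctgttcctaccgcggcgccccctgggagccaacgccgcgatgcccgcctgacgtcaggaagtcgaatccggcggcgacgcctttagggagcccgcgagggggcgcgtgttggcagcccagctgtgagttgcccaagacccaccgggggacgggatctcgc
FADS2: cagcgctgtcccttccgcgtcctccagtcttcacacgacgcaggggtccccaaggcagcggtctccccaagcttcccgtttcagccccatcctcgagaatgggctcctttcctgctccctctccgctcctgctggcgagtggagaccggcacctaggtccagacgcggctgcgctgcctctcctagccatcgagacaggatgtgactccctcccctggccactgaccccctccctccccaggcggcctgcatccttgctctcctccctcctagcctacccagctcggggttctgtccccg
These lie at chr22:41832855-41833154 on the plus strand (SREBF2), chr7:155297628-155297927 on the plus strand (INSIG1), chr2:118088221-118088520 on the plus strand (INSIG2), chr11:71448344-71448643 on the minus strand (DHCR7), chr16:88663042-88663341 on the minus strand (MVD), chr11:61816954-61817253 on the minus strand (FADS1) and chr11:61815953-61816252 on the plus strand (FADS2). Each window spans the gene's annotated start, so it holds upstream sequence and the first transcribed bases. INSIG2, DHCR7 and FADS2 each have 2 starts in the RefSeq table and the first listed is shown.

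Most of the members were lower in the double knockout. Of the 42 members, 31 fell, 1 rose and 10 did not pass the test, against 20.1% of all 12756 genes that fell and 22.9% that rose according to the authors' deposited table. The median log2 fold change of the members was -0.71, a level 1.64-fold lower, beside 0.01 over all genes. The 16 members that fell with a log2 fold change under -1 compare with 2.12% of all genes. All 11 squalene and sterol genes lay below 0, and 10 of them fell.

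The single knockouts held far fewer such calls. In the AGO2 knockout 7 members fell and none rose, beside 2.72% of all genes that fell and 3.38% that rose, and the members' median was -0.16 beside 0.00 over all genes. In the ANKRD52 knockout 9 members fell and none rose, beside 6.04% and 7.62% of all genes, and the median was -0.18 beside 0.00. With the likelihood ratio read against F with 1 and 8 degrees of freedom, no member passed in either single knockout (edgeR likelihood ratios, Benjamini-Hochberg over all genes). With 1 and 18 degrees of freedom, 3 passed in the AGO2 knockout and 4 in the ANKRD52 knockout, and 13 members in each had a deposited unadjusted p under 0.05. Counting falls and rises together, the double knockout kept 31 called members with 1 and 8 degrees of freedom and lost SCAP. Its count thus changed little with that choice.

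**Figure D1:**
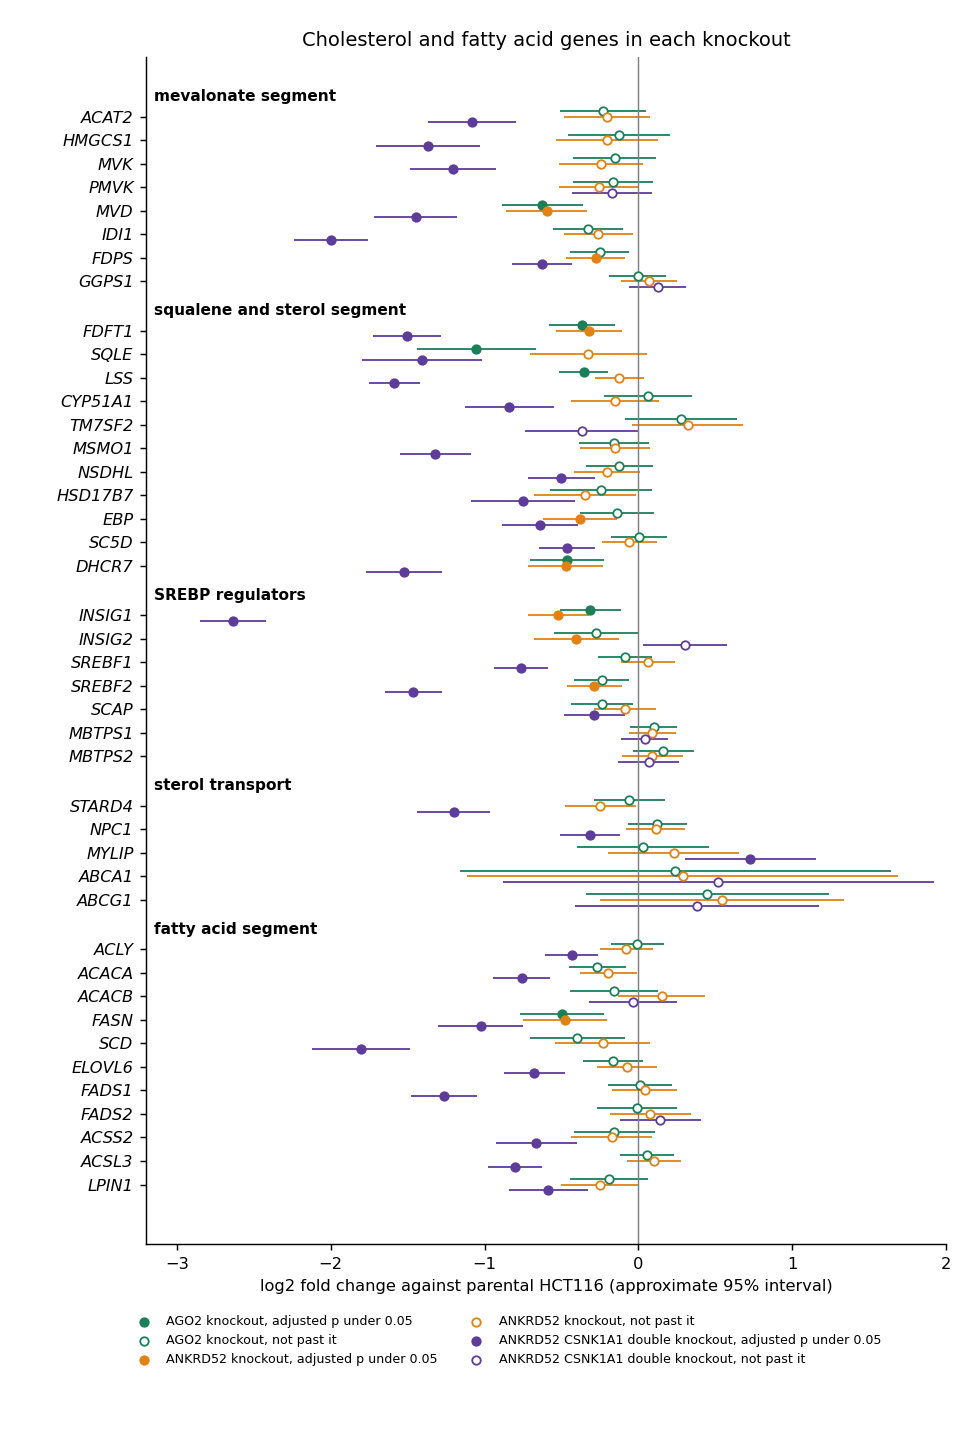
Log2 fold change of each of the 42 members against parental in the 3 knockouts (x axis, log2 scale), grouped by role, with approximate 95% intervals as lines and filled points where the authors' adjusted p was under 0.05. In the double knockout 31 filled points lie left of 0 and 1 (MYLIP) lies right of it, while the single knockouts have 7 and 9 filled points, all left of 0.

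**Figure D2:**
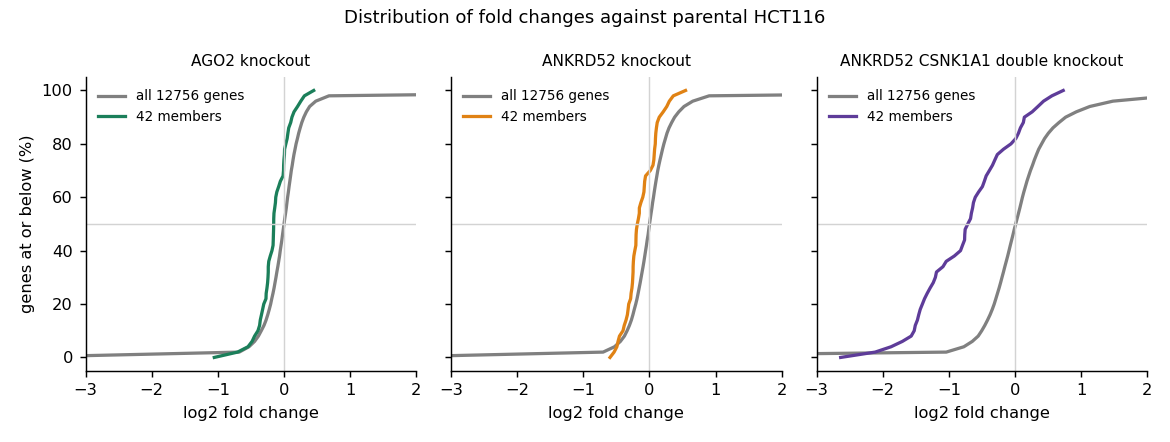
Share of genes at or below each log2 fold change (y axis, percent) for the 42 members and for all 12756 genes, 1 panel per knockout, with the x axis drawn from -3 to 2. The members' curve is shifted to the left in each panel, with medians of -0.16, -0.18 and -0.71, beside 0.00, 0.00 and 0.01 for all genes.

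Among the regulators, INSIG1, which retains SCAP in the endoplasmic reticulum, fell in every knockout and by far the most in the double. The authors' deposited table gave it a log2 fold change of -2.64 in the double knockout (SE 0.11, 95% interval -2.85 to -2.42, adjusted p = 6.61e-122). That is 16.1% of the parental level, 6.21-fold lower, and INSIG1 ranked 4 of all 12756 genes by likelihood ratio. The implied level was 103 CPM in parental cells, 83.3 in the AGO2 knockout, 72.1 with ANKRD52 knocked out and 16.7 in the double. According to the authors' deposited tables INSIG1 had log2 fold changes of -0.31 in the AGO2 knockout (SE 0.10, adjusted p = 0.0387) and -0.52 in the ANKRD52 knockout (SE 0.10, adjusted p = 2.55e-05).

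Its relative INSIG2, which also binds SCAP but is not induced by SREBPs in the same way, had another pattern. According to the authors' deposited tables INSIG2 fell in the ANKRD52 knockout by 0.40 in log2 terms (SE 0.14, adjusted p = 0.0361) and stood at -0.27 in the AGO2 knockout (adjusted p = 0.241). The authors' deposited table for the double knockout lists INSIG2 at 0.31 (SE 0.14, adjusted p = 0.0631), which did not pass. Its implied levels were 24.4, 20.2, 18.4 and 30.1 CPM in parental, AGO2 knockout, ANKRD52 knockout and double knockout cells.

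SREBF2, the gene of the SREBP that mainly drives cholesterol synthesis, fell in the double knockout to 36.3% of the parental level according to the authors' deposited table (log2 fold change -1.46, SE 0.09, adjusted p = 6.81e-52). Its implied level went from 318 CPM in parental cells to 270 in the AGO2 knockout, 261 with ANKRD52 knocked out and 115 in the double. The authors' deposited tables put SREBF2 at -0.24 in the AGO2 knockout (adjusted p = 0.0986) and at -0.28 in the ANKRD52 knockout (adjusted p = 0.0209). SREBF1, whose products mainly drive fatty acid synthesis, fell by less. According to the authors' deposited table its log2 fold change was -0.76 in the double knockout (SE 0.09, adjusted p = 8.45e-16), a level of 59.0% of parental. In the single knockouts SREBF1 lay at -0.09 (AGO2, adjusted p = 0.617) and 0.06 (ANKRD52, adjusted p = 0.702) according to the authors' deposited tables.

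SCAP and the proteases that release the active part of SREBPs changed little at the RNA level. SCAP fell by 0.28 in log2 terms in the double knockout according to the authors' deposited table (SE 0.10, adjusted p = 0.0160), a call that does not pass with 1 and 8 degrees of freedom. SCAP stood at -0.24 in the AGO2 knockout (adjusted p = 0.145) and -0.09 in the ANKRD52 knockout (adjusted p = 0.644) according to the authors' deposited tables. The proteases MBTPS1 and MBTPS2 lay between 0.04 and 0.16 in all 3 of the authors' deposited tables and passed in none.

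Of the 8 mevalonate genes, which build farnesyl and geranylgeranyl diphosphate from acetyl-CoA, 6 fell in the double knockout and their median was -1.14. The largest fall was that of IDI1, the isomerase that makes the second of the isoprene building blocks. Its level was 25.0% of parental according to the authors' deposited table (log2 fold change -2.00, SE 0.12, adjusted p = 7.12e-58), with an implied 128 CPM in parental cells and 32.1 in the double. IDI1 stood at -0.33 in the AGO2 knockout (adjusted p = 0.0652) and -0.26 in the ANKRD52 knockout (adjusted p = 0.123) according to the authors' deposited tables.

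MVD, the decarboxylase that ends the segment's chain of mevalonate intermediates, was the mevalonate gene that fell in all 3 knockouts. The authors' deposited tables gave log2 fold changes of -0.62 in the AGO2 knockout (SE 0.14, adjusted p = 0.000661), -0.60 in the ANKRD52 knockout (SE 0.14, adjusted p = 0.000440) and -1.45 in the double (SE 0.14, adjusted p = 9.74e-24). Its implied level was 103 CPM in parental cells, 66.7 and 67.9 in the single knockouts and 37.7 in the double. The single knockouts thus lay close to each other and between parental and double.

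HMGCS1, which makes HMG-CoA, fell to 38.7% of parental in the double knockout according to the authors' deposited table (log2 fold change -1.37, SE 0.17, adjusted p = 1.10e-13). According to the authors' deposited table MVK, the first kinase of the chain, had -1.20 (SE 0.14, adjusted p = 1.99e-15). ACAT2, the cytosolic thiolase that opens the pathway, had -1.08 there (SE 0.15, adjusted p = 2.66e-12), according to the authors' deposited table. These 3 genes lay between -0.24 and -0.13 in both authors' deposited tables of the single knockouts and passed in neither.

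FDPS, the farnesyl diphosphate synthase, fell by less, with -0.62 in the double (adjusted p = 4.95e-09) and -0.28 in the ANKRD52 knockout (adjusted p = 0.0398) according to the authors' deposited tables. PMVK, the other kinase, was at -0.17 in the double (adjusted p = 0.299) according to the authors' deposited table. GGPS1, which leads away from sterols to protein prenylation, was at 0.13 there (SE 0.09, adjusted p = 0.282, the authors' deposited table). PMVK and GGPS1 were the mevalonate genes that passed in none of the 3 comparisons.

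In the squalene and sterol segment the median in the double knockout was -0.84. LSS, the cyclase that folds epoxidised squalene into lanosterol, fell to 33.3% of parental according to the authors' deposited table (log2 fold change -1.59, SE 0.09, adjusted p = 3.10e-74) and ranked 12 of all genes by likelihood ratio. LSS also fell in the AGO2 knockout, by 0.36 in log2 terms (SE 0.08, adjusted p = 0.00153), and was at -0.12 in the ANKRD52 knockout (SE 0.08, adjusted p = 0.340), per the authors' deposited tables. In the double knockout DHCR7, a reductase of the last steps, fell by 1.52 in log2 terms (SE 0.13, adjusted p = 1.86e-31, the authors' deposited table). FDFT1, the squalene synthase and first enzyme committed to sterols, fell by 1.51 in the double knockout (SE 0.11, adjusted p = 2.77e-38) according to the authors' deposited table. Together with INSIG1, MVD and FASN, the genes DHCR7 and FDFT1 make up the 5 members that fell in all 3 knockouts, which share their parental libraries. The authors' deposited tables put DHCR7 at -0.46 (AGO2, adjusted p = 0.00897) and -0.47 (ANKRD52, adjusted p = 0.00293), and FDFT1 at -0.37 (AGO2, adjusted p = 0.0244) and -0.32 (ANKRD52, adjusted p = 0.0319).

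The demethylation and desaturation steps that follow lanosterol were also lower in the double knockout. MSMO1, an oxidase that removes methyl groups, fell by 1.32 in log2 terms according to the authors' deposited table (SE 0.12, adjusted p = 1.56e-26). CYP51A1, the lanosterol demethylase, had -0.84 (adjusted p = 1.66e-07) and HSD17B7, a ketosteroid reductase, had -0.75 (adjusted p = 9.08e-05) according to the authors' deposited table. EBP, the sterol isomerase, NSDHL, a dehydrogenase, and SC5D, a desaturase, fell by between 0.46 and 0.64 according to the authors' deposited table. TM7SF2, a sterol reductase whose reaction another protein can also carry out, was at -0.37 in the double knockout (SE 0.19, adjusted p = 0.0977) and at 0.28 and 0.32 in the single knockouts according to the authors' deposited tables, passing in none. EBP also fell in the ANKRD52 knockout by 0.38 (adjusted p = 0.0234, the authors' deposited table).

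SQLE, the epoxidase and a rate-setting enzyme of the sterol branch, fell in 2 of the 3 knockouts. According to the authors' deposited tables it fell by 1.05 in log2 terms in the AGO2 knockout (SE 0.20, adjusted p = 3.55e-05) and by 1.41 in the double (SE 0.20, adjusted p = 3.65e-11). In the ANKRD52 knockout it was at -0.32 (SE 0.20, adjusted p = 0.280) according to the authors' deposited table. The implied levels were 111 CPM in parental cells, 53.5 in the AGO2 knockout, 88.7 with ANKRD52 knocked out and 41.9 in the double.

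SQLE lies on chromosome 8, and its 20 nearest tested genes in RefSeq order, 10 on each side, had a median of -0.32 in the AGO2 knockout, with 18 of them below 0 and 4 called. The same neighbours had medians of -0.14 with ANKRD52 knocked out and -0.06 in the double, from the authors' deposited tables. AGO2, the gene targeted in the AGO2 knockout, also lies on chromosome 8, and its distance from SQLE was not measured here. The part of the neighbourhood in SQLE's lower level was not tested. This look at neighbours was chosen after the values of SQLE were seen. FDFT1, also on chromosome 8, had neighbours with medians of -0.10, 0.05 and -0.14 in the AGO2, ANKRD52 and double knockouts. For the other members that fell in all 3, the medians in that order were -0.12, -0.18 and -0.23 beside MVD. They were -0.17, -0.12 and -0.18 beside FASN, 0.04, 0.02 and 0.29 beside DHCR7, and 0.20, 0.03 and -0.09 beside INSIG1. The part of the neighbourhood in the levels of these genes was not tested either.

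Among transport genes, STARD4, a soluble carrier that moves cholesterol between membranes, fell by 1.20 in log2 terms in the double knockout according to the authors' deposited table (SE 0.12, adjusted p = 1.92e-21). NPC1, which lets cholesterol leave lysosomes, fell by 0.31 (SE 0.10, adjusted p = 0.00513, the authors' deposited table). MYLIP, a ubiquitin ligase that marks lipoprotein receptors for degradation and is induced by the sterol-sensing LXR receptors, was the member that rose. Its log2 fold change according to the authors' deposited table was 0.73 in the double knockout (SE 0.22, 95% interval 0.30 to 1.16, adjusted p = 0.00316), with implied levels of 8.49, 8.69, 9.96 and 14.1 CPM in parental, AGO2 knockout, ANKRD52 knockout and double knockout cells.

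The cholesterol exporters ABCA1 and ABCG1, also LXR targets, were too weakly measured to read. In the double knockout ABCA1 was at 0.52 (95% interval -0.88 to 1.92, adjusted p = 0.580) and ABCG1 at 0.38 (95% interval -0.41 to 1.18, adjusted p = 0.463) according to the authors' deposited table. Their mean levels, in log2 CPM, were -0.21 for ABCA1 and 1.32 for ABCG1, so a change of the size seen for MYLIP lies within both intervals. No transport gene passed in a single knockout.

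The fatty acid genes fell in the double knockout at 9 of 11, with a median of -0.68. SCD, the desaturase that makes oleate, had the largest fall, to 28.7% of parental according to the authors' deposited table (log2 fold change -1.80, SE 0.16, adjusted p = 2.44e-26). SCD stood at -0.40 in the AGO2 knockout (SE 0.16, adjusted p = 0.113) and -0.23 in the ANKRD52 knockout (adjusted p = 0.360) according to the authors' deposited tables. FASN, the fatty acid synthase, was the fatty acid gene that fell in all 3, with log2 fold changes of -0.50 (SE 0.14, adjusted p = 0.0134), -0.48 (SE 0.14, adjusted p = 0.00920) and -1.03 (SE 0.14, adjusted p = 6.62e-12) in the AGO2, ANKRD52 and double knockouts according to the authors' deposited tables.

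Enzymes that supply acetyl-CoA or that lengthen, activate and use fatty acids also fell in the double knockout. ACLY, which splits citrate, had -0.43 (adjusted p = 8.35e-06) and ACSS2, which uses acetate, had -0.66 (adjusted p = 8.30e-06) according to the authors' deposited table. ELOVL6, which lengthens palmitate, had -0.68 (adjusted p = 3.94e-10) and ACSL3, which activates fatty acids on lipid droplets, had -0.80 (adjusted p = 3.81e-17) according to the authors' deposited table. LPIN1, a phosphatidate phosphatase of triglyceride synthesis, had -0.58 (SE 0.13, adjusted p = 5.42e-05, the authors' deposited table). None of these 5 genes passed in a single knockout, where they lay between -0.25 and 0.10.

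Several relatives with related functions parted in the double knockout. ACACA, the cytosolic acetyl-CoA carboxylase that feeds synthesis, fell by 0.76 in log2 terms (SE 0.10, adjusted p = 5.63e-14) according to the authors' deposited table. ACACB, the mitochondrial form tied to control of oxidation, was at -0.03 there (SE 0.15, adjusted p = 0.873, the authors' deposited table). FADS1 fell by 1.26 (SE 0.11, adjusted p = 7.02e-29) according to the authors' deposited table, from an implied 153 CPM in parental cells to 63.5. FADS2 was at 0.14 (SE 0.13, 95% interval -0.12 to 0.41, adjusted p = 0.397, the authors' deposited table), with 24.5 CPM in parental cells and 27.1 in the double. These desaturases of polyunsaturated fatty acids lie head to head on chromosome 11 with starts 802 bases apart, and their annotated spans overlap. LPIN2, a relative of LPIN1 outside the 42, rose by 2.08 in log2 terms (SE 0.17, adjusted p = 6.59e-34) according to the authors' deposited table. The differences within these pairs were not tested.

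**Figure D3:**
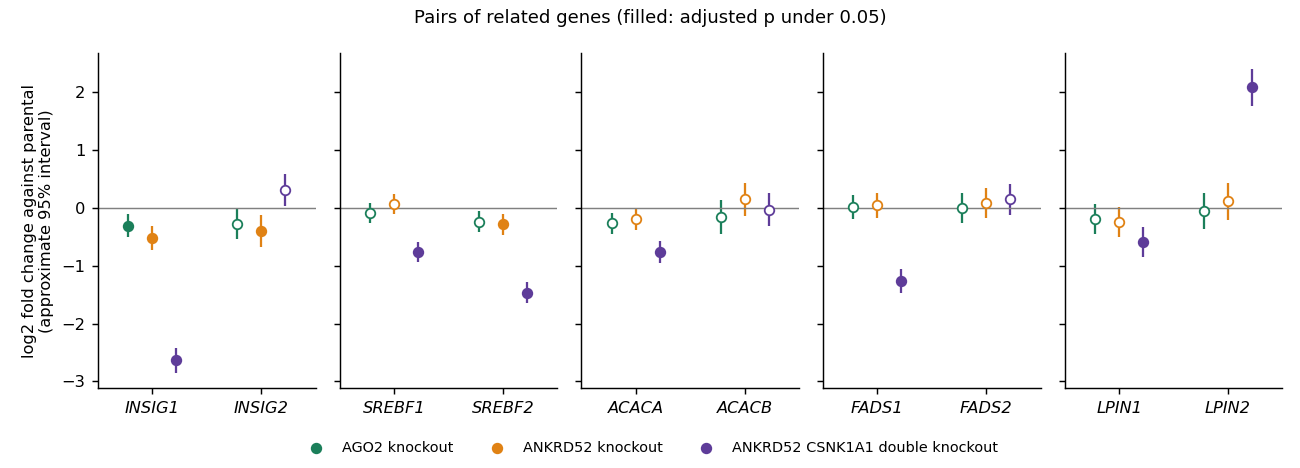
Log2 fold change against parental (y axis) for 5 pairs of related genes in the 3 knockouts, with approximate 95% intervals and filled points where the authors' adjusted p was under 0.05. In the double knockout INSIG1 (-2.64), FADS1 (-1.26) and ACACA (-0.76) lie below their relatives INSIG2 (0.31), FADS2 (0.14) and ACACB (-0.03), and LPIN2 (2.08) lies above LPIN1 (-0.58).

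The double knockout was next compared with the ANKRD52 knockout, which asks what differed between libraries labelled as knockouts of ANKRD52 with and without CSNK1A1. The 2 were not compared directly by the authors, so the log2 fold changes were subtracted, an approximate test in which the shared parental level drops out. Of 41 members tested (ABCA1 was below the expression limit of a mean log2 CPM of 1), 29 were lower in the double knockout, 1 was higher and 11 did not pass. Over 11877 genes tested, 16.3% were lower and 18.1% were higher. The members' median difference was -0.56, beside -0.00 over all genes tested.

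INSIG1 showed the largest difference, -2.11 in log2 terms (SE 0.11, 95% interval -2.32 to -1.91, approximate adjusted p = 8.78e-85). IDI1 followed with -1.74 (SE 0.12), SCD with -1.57 (SE 0.16), LSS with -1.46 (SE 0.08) and FADS1 with -1.31 (SE 0.11). SREBF2 differed by -1.18 (SE 0.09) and SREBF1 by -0.83 (SE 0.09). TM7SF2, which had not passed against parental in any knockout, was lower in the double than in the ANKRD52 knockout, with a difference of -0.69 (SE 0.19, approximate adjusted p = 0.00124). That call ends when the variance of the difference is taken as the sum of both squared standard errors.

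INSIG2 was the member that was higher in the double knockout than in the ANKRD52 knockout, by 0.71 in log2 terms (SE 0.14, 95% interval 0.43 to 0.98, approximate adjusted p = 5.12e-06). MYLIP differed by 0.50 (SE 0.22, approximate adjusted p = 0.0611) and did not pass. EBP (-0.26, approximate adjusted p = 0.0916), HSD17B7 (-0.40, approximate adjusted p = 0.0516) and SCAP (-0.20, approximate adjusted p = 0.122) did not pass either. FADS2, PMVK and GGPS1 had differences of 0.07, 0.08 and 0.05, with intervals that spanned 0.

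Against the AGO2 knockout, 30 of the 41 members were lower in the double, 2 were higher and 9 did not pass. The background was 21.0% lower and 21.6% higher, and the members' median difference was -0.51. INSIG1 differed by -2.32 (SE 0.11) and SREBF2 by -1.23 (SE 0.09). The members that were higher in the double were INSIG2, by 0.58 (SE 0.14, approximate adjusted p = 0.000215), and MYLIP, by 0.70 (SE 0.22, approximate adjusted p = 0.00525). The MYLIP call ends with the sum of both squared standard errors as the variance. SQLE differed by -0.35 (95% interval -0.74 to 0.03, approximate adjusted p = 0.139), so its levels in these 2 knockouts could not be separated.

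Between the single knockouts few members differed. SQLE was higher in the ANKRD52 knockout than in the AGO2 knockout by 0.73 (SE 0.20, approximate adjusted p = 0.00569) and LSS by 0.23 (SE 0.08, approximate adjusted p = 0.0479). These were 2 of 41 members, with none lower, beside 5.52% of genes tested that were higher and 3.91% that were lower. Neither call holds with the sum of both squared standard errors as the variance. INSIG1 differed by -0.21 (95% interval -0.41 to -0.01, approximate adjusted p = 0.191), MVD by 0.03, DHCR7 by -0.01 and FASN by 0.02, none of which passed.

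**Figure D4:**
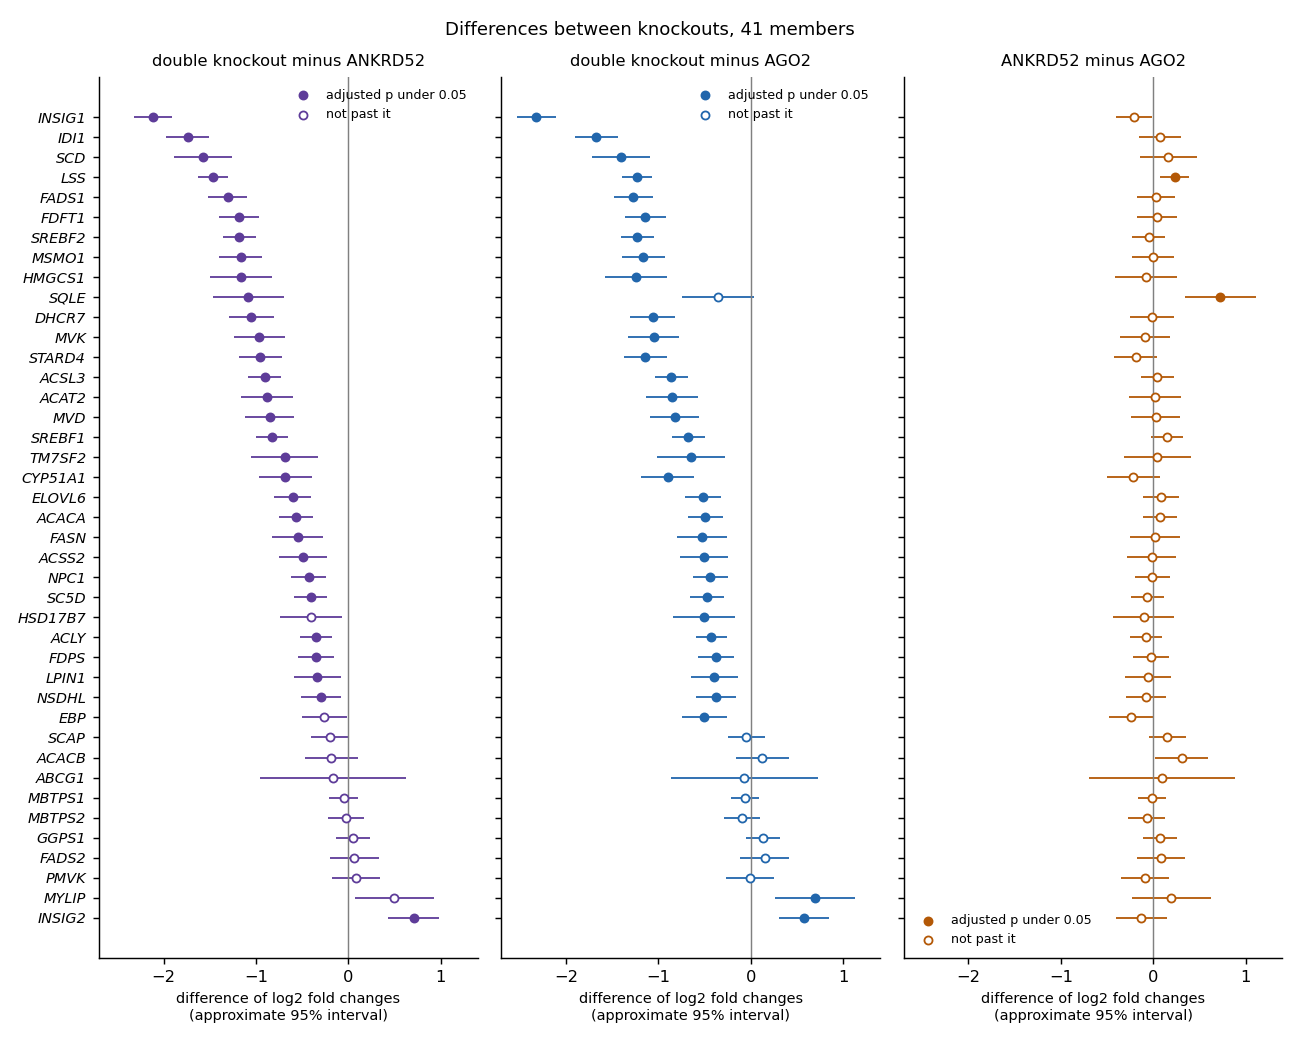
Difference of log2 fold changes (x axis) for the 41 members tested, in the double minus the ANKRD52 knockout, the double minus the AGO2 knockout, and the ANKRD52 minus the AGO2 knockout, with approximate 95% intervals and filled points at an approximate adjusted p under 0.05. INSIG1 lies farthest left in the first panel (-2.11) and INSIG2 farthest right (0.71), while SQLE (0.73) and LSS (0.23) are the filled points of the third panel.

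The promoters were searched on both strands for the motifs shown in the sequences and for GGGCGG (Sp1 box), and positions below count bases from the gene start to the first base of a match. RefSeq promoters were found for 37 of the 42 members, 53 promoters in all, and not for ACAT2, FDFT1, SQLE, ABCG1 and FASN. TCACNCCAC was found in 1 member promoter, that of SREBF2 at position -133, 1.89% of the member promoters beside 1.13% of all 35116 promoters. The SREBF2 match carries C at the open base and A just before it, a 10-base form found in 16 of all promoters. The looser TCANNCCAC, which includes every TCACNCCAC match, was found in 4 member promoters (SREBF2, INSIG1, ACLY and ACACB), 7.55% beside 3.82% of all. In INSIG1 it starts at position -108, with a CCAAT at -170 and an E-box at -55.

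CCAAT, the box bound by the SREBP partner NF-Y, was present in 29 of 53 member promoters (54.7%), beside 34.6% of all promoters and 34.4% of those of the tables' genes. Among promoters of members that fell in the double knockout, 24 of 38 held it (63.2%), and among those of the other members 5 of 15 (33.3%). Counted by gene, the contrast was smaller. CCAAT was then present in 20 of 27 members that fell (74.1%) and 5 of 10 others (50%). Both shares lay above the 43.2% of the tables' genes with a promoter. The same split of promoters gave 7.89% and 6.67% for TCANNCCAC, 13.2% and 6.67% for CACGTG, and 89.5% and 66.7% for GGGCGG. MVD has CCAAT at -159, -120 and -85, DHCR7 at -94 and -48, and SREBF2 at -106. The promoters of INSIG2, FADS1 and FADS2 printed above hold none. GGGCGG was found in 44 of 53 member promoters (83.0%), beside 66.8% of those of the tables' genes, and CACGTG in 6 (11.3%), beside 9.25%. These shares are descriptions, several promoters belong to 1 gene, and a match is not a bound site.

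**Figure D5:**
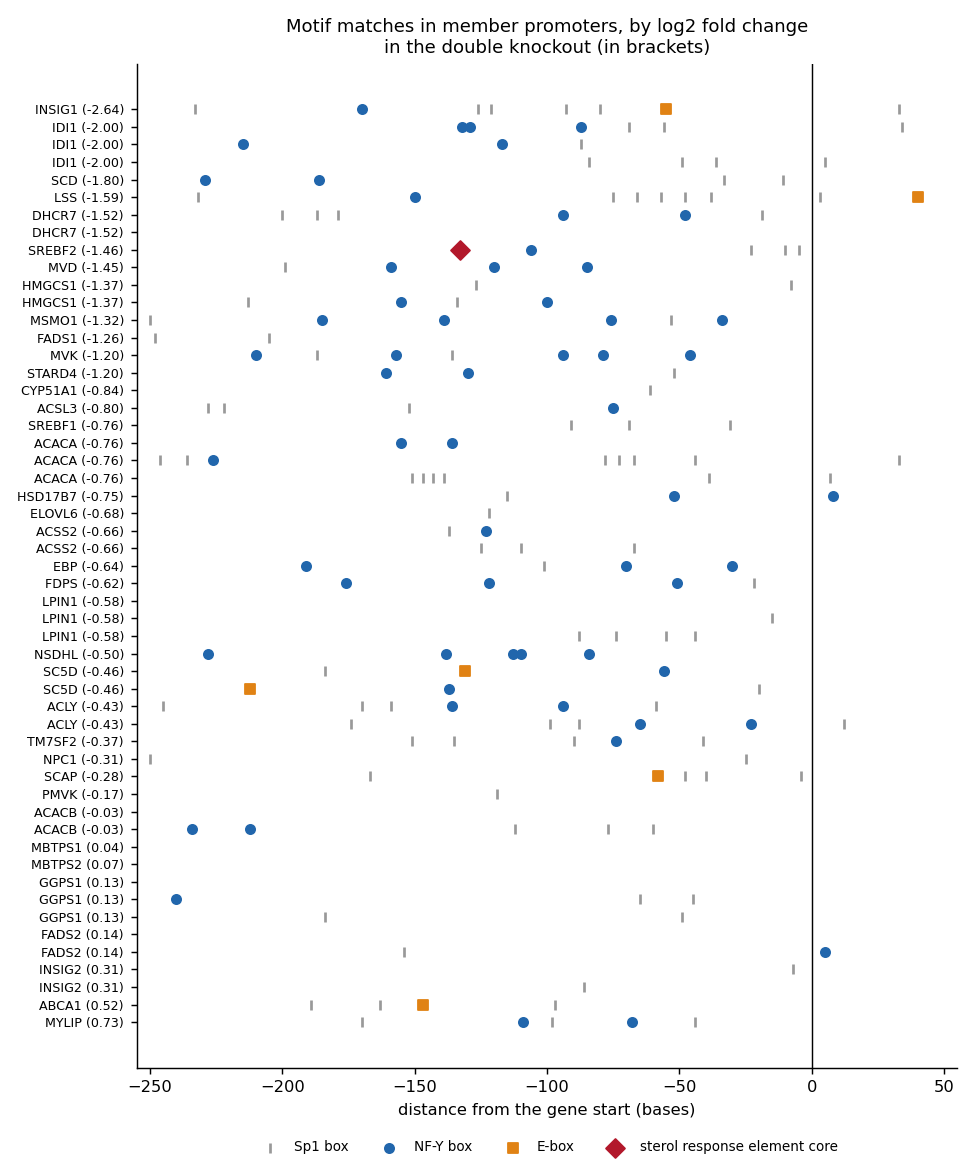
Positions of motif matches in the 53 member promoters (x axis, bases from the gene start at 0), 1 row per promoter, ordered by the gene's log2 fold change in the double knockout from INSIG1 (-2.64) at the top to MYLIP (0.73) at the bottom. NF-Y boxes appear in 29 rows and the sterol response element core in 1, that of SREBF2 at -133.

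Other genes linked to the members' pathways were counted from separate lists. The first includes SEC23, SEC24 and SAR1 genes of a vesicle coat that is not particular to SREBPs. Of 16 genes that move the SREBP and SCAP complex or degrade its parts, none fell and 5 rose in each single knockout, where 3.38% (AGO2) and 7.62% (ANKRD52) of all genes rose. In the double 2 fell and 5 rose, beside 20.1% and 22.9% of all genes, so the share that rose was near the background. SEC24D, a cargo coat protein of vesicles that leave the endoplasmic reticulum, rose by 0.62 in log2 terms in the ANKRD52 knockout (adjusted p = 4.75e-06) and by 0.38 in the AGO2 knockout (adjusted p = 0.0189) according to the authors' deposited tables. SEC23A, its partner in the coat, rose by 0.45 (adjusted p = 0.000568) and 0.39 (adjusted p = 0.00963) in the same order according to the authors' deposited tables. In the double knockout the smallest p-values belonged to SAR1A, the GTPase that starts the coat (0.63, adjusted p = 6.74e-14), RNF145, a ubiquitin ligase that acts on SCAP (0.74, adjusted p = 1.16e-12), and C12orf49, an SREBP pathway regulator (0.67, adjusted p = 2.73e-12), which all rose according to the authors' deposited table.

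Of 12 genes of sterol storage, uptake and traffic, 3 fell and 1 rose in the double knockout, where 20.1% of all genes fell and 22.9% rose. SCARB1, the receptor of high density lipoprotein, fell by 0.82 in log2 terms (adjusted p = 8.44e-05) and SOAT1, which esterifies cholesterol for storage, rose by 0.33 (adjusted p = 0.00410) according to the authors' deposited table. Of 21 genes of fatty acid elongation, activation and glycerolipid synthesis, 6 fell and 6 rose in the double, close to those shares. SLC25A1, which exports the citrate that ACLY splits, fell by 1.16 (adjusted p = 4.64e-19) and ME1, a source of NADPH, fell by 0.66 (adjusted p = 5.15e-07) according to the authors' deposited table. IDH1, another source of NADPH, rose by 1.01 (adjusted p = 1.99e-10, the authors' deposited table).

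Counting could blur some members. The labels do not say that counting used strand, and 9 members overlap another tested gene in RefSeq. MMAB, which overlaps MVK, fell in the double knockout by 0.81 (adjusted p = 2.30e-07), and TCP1, which overlaps ACAT2, by 0.41 (adjusted p = 7.45e-06) according to the authors' deposited table. WDR37 (beside IDI1) and RAI1 (beside SREBF1) were both at 0.04 there, and SOD2 (beside ACAT2) was at 0.00, according to the authors' deposited table. YY2, which overlaps MBTPS2, rose by 0.96 in the double knockout (adjusted p = 0.000655) according to the authors' deposited table. ARID4B (beside GGPS1) and C18orf8 (beside NPC1) were both at 0.10 there and did not pass. RefSeq also lists pseudogenes of IDI1, FDPS, CYP51A1, HSD17B7, SCD and ACSL3, so reads of these 6 could be shared. HSD17B7P2 is the one with values here, at -0.15 in the double knockout (adjusted p = 0.698) according to the authors' deposited table.

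The targeted genes and cell markers were checked in the same tables. AGO2 fell by 1.07 in log2 terms in the AGO2 knockout (adjusted p = 0.0477) and CSNK1A1 by 2.42 in the double (adjusted p = 1.71e-10) according to the authors' deposited tables. ANKRD52 RNA was at 0.03 in the ANKRD52 knockout (adjusted p = 0.915) fell by 0.65 in the double (adjusted p = 2.32e-05) and rose by 0.85 in the AGO2 knockout (adjusted p = 8.78e-07) according to the authors' deposited tables, so RNA does not check the label of the ANKRD52 libraries. All 8 epithelial markers were measured, and 6 of them rose in the double knockout, where the members fell. Among these, CDX2 rose by 2.67 and VIL1 by 5.91 according to the authors' deposited table. VIL1 had a mean log2 CPM of -0.40, below the limit of 1 used to compare knockouts. In the ANKRD52 knockout, where 9 members fell, EPCAM fell by 0.81 (adjusted p = 0.000545) and CDH1 by 1.33 (adjusted p = 0.0195) per the authors' deposited table, and in the AGO2 knockout edgeR called 0 of the 8, with 1 at an unadjusted p under 0.05. The summed implied level of the 8 was 3318 CPM in parental cells, 3422 in the AGO2 knockout, 3184 with ANKRD52 knocked out and 8700 in the double. Of 16 markers of cells the culture should lack, 4 were measured and 12 were not analysed here. Their summed implied levels were 16.7, 19.5, 15.8 and 26.3 CPM. In the double LYZ (6.77) and VWF (2.25) rose, CD68 fell by 1.96 and COL1A1 was at 0.24 according to the authors' deposited table. VWF, with a mean log2 CPM of 0.11, also lay below the limit of 1. The part of these marker changes in the members' lower level was not tested.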

How the data were processed

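PolyA RNA of 12 HCT116 libraries was prepared with a stranded kit and run for 75 cycles, per the labels' protocols. Named in the submitters' processing notes are hg19, edgeR 3.8.6, featureCounts 1.4.6 and TopHat2 2.0.12, and whether counting used strand is not given in the sources used here. The 3 tables are the authors' edgeR output, per the file headers: a log2 fold change and mean log2 CPM by the authors, a deposited likelihood ratio score, and a deposited p-value with its adjusted value. For all 12756 genes it was checked that each deposited p-value is the chi-square tail of its ratio and that the adjusted values follow Benjamini and Hochberg. Depth per library is unknown.

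An approximate standard error was rebuilt by dividing the absolute log2 fold change by the square root of its likelihood ratio. Knockouts were compared by subtracting log2 fold changes. The variance of a difference was the mean of the squared errors on both sides, the test was normal, and p-values were adjusted (Benjamini-Hochberg) over the 11877 genes whose mean log2 CPM reached 1. The arithmetic of this comparison was tested on simulated data, which does not show that the rebuilt errors are right. Promoters came from RefSeq (GRCh38.p14), and no hg19 coordinates were used. Of the tables' genes, 11545 matched RefSeq by symbol and 955 by synonym.

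The members, the other gene lists and the tests were chosen with earlier results of these data known. Every member is named. Full values are given for called members among the 10 largest changes of a comparison, for SREBF1, SREBF2, SCAP, INSIG1 and INSIG2, and for members against the common direction in the double knockout. From other lists up to 4 genes with the smallest p were eligible. Alternatives were a stricter threshold, expression filters, an F reference, a minimum change, centring, another variance and other motif forms. The software was matplotlib 3.10.9, pandas 2.3.3, scipy 1.17.1, numpy 2.4.6 and Python 3.11.15.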

Additional observations from a re-analysis of the deposited data

How the results depend on the processing

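In the AGO2 knockout the 7 members called became 4 at an adjusted p under 0.01, 2 with a change of at least 0.5, 3 with an F distribution of 1 and 18 degrees of freedom (chosen after seeing the data) and 0 with 1 and 8. In the ANKRD52 knockout the 9 became 4, 2, 4 and 0 under the same settings. With 1 and 8 degrees of freedom the calls over all genes were 0 and 3, so the loss was not limited to the members. Between the single knockouts, the 2 members higher in the ANKRD52 knockout became 1 at an adjusted p under 0.01 and 0 with the sum of both squared standard errors. With that sum, 1 of the 2 members higher in the double than in the AGO2 knockout remained, and MYLIP was the one lost. Members called in the double knockout against parental numbered 28 to 32 under the alternatives, and against the ANKRD52 knockout 25 to 31. No value changed direction. No paired analysis was possible because the files hold no per-sample values, and for that reason leaving out a replicate was not run. Depth is unknown, so no limit from counting can be given.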

Other observations

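Fatty acid oxidation, the route that breaks down what the members build, was described by 19 listed genes, of which 9 fell and 2 rose in the double knockout, with a median log2 fold change of -0.26. Over all genes 20.1% fell and 22.9% rose there. ECI1, an isomerase needed for unsaturated chains, fell by 0.67 in log2 terms (SE 0.10, adjusted p = 6.11e-10) and its relative ECI2 by 0.53 (adjusted p = 2.83e-07) according to the authors' deposited table. ETFB and ETFDH, which pass electrons from the pathway to the respiratory chain, fell by 0.64 (adjusted p = 2.22e-05) and 0.60 (adjusted p = 5.88e-06) according to the authors' deposited table. In the single knockouts 1 of the 19 fell in each, beside 2.72% (AGO2) and 6.04% (ANKRD52) of all genes, ECI1 in the AGO2 knockout (-0.34, adjusted p = 0.0176) and ETFB in the ANKRD52 knockout (-0.37, adjusted p = 0.0460) according to the authors' deposited tables.

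Of 14 listed genes that use isoprenoids made by the mevalonate segment, none was called in a single knockout by the authors' edgeR test, with 4 in the AGO2 and 0 in the ANKRD52 knockout at an unadjusted p under 0.05. In the double 3 fell and 3 rose, with a median of -0.00, close to the shares of all genes given above. FNTA, the alpha subunit of farnesyltransferase, fell by 0.46 in log2 terms (adjusted p = 0.00397) and ZMPSTE24, a protease of prenylated proteins, rose by 0.45 (adjusted p = 0.000409) according to the authors' deposited table.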
